A study of Homo sapiens with 12 samples.

Results

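These 70 genes are those of 3281 LPS-responsive genes that were at least 4 times higher in cells with the S80A form of NFKB1 than in wild-type cells, both before lipopolysaccharide (LPS) and 3 hr after it. They were selected on measured values. A gene was kept when its S80A mean over 3 libraries was at least 4 times the wild-type mean at 0 hr and again at 3 hr, with an S80A mean of 50 or more at both times. The height of the genotype gap is therefore what chose the genes, and it is given below as a description with no test. The same rule turned round, for genes at least 4 times lower in S80A cells, kept 17 genes.

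The libraries came from THP-1, a line of human leukaemic monocytes that the phorbol ester PMA turns into macrophage-like cells. All cells, wild-type (WT) and S80A alike, received PMA at 25 ng/ml for 72 hr and rested for 4 days, and were then left untreated (0 hr) or given LPS at 10 ng/ml for 3 hr. Each of the 4 groups (WT 0 hr, WT 3 hr, S80A 0 hr, S80A 3 hr) had 3 libraries. The labels do not say how the S80A cells were made, whether they are 1 clone, or that replicates were separate cultures, so genotype and cell line cannot be told apart, and p-values reflect no more than the differences among these libraries, which may be technical. Expression is given in scaled reads, the read count of a gene over the size factor of its library, and the tables hold only genes with an LPS response in WT or in S80A cells by the authors' thresholds.

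NFKB1 encodes p105, which is processed to p50, a DNA-binding subunit of NF-κB that lacks a transactivation domain of its own. Dimers of p50 with RELA activate κB sites after LPS reaches TLR4, whereas p50 homodimers can occupy κB sites without activating them. The S80A form replaces 1 serine of p50 with alanine, which cannot be phosphorylated. In macrophages NF-κB is best known for inducing cytokines, chemokines and its own inhibitors.

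S80A replicate 1 stood apart from S80A replicates 2 and 3 and is given separately. It was the lowest of the 3 S80A libraries at both times for 55 of the 70 genes, against 21.7% of all listed genes. Among all 4 groups, WT included, replicate 1 was the lowest library of each group for 12 of the 70 genes, against 7.28% of all listed genes, and the highest of each for 1 (ID3), against 4.45%. Reads on all listed genes ranged from 1924562 to 5789918 per library, and those on the 70 genes from 22563 to 320939. The 70 genes took 1.00 to 1.42% of the scaled reads on listed genes in WT libraries, 3.47 to 4.55% in S80A replicate 1 and 5.88 to 7.28% in S80A replicates 2 and 3. In bulk RNA, fewer cells of a kind and less RNA per cell cannot be told apart.

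Of the marker lists of other cells, those for fibroblasts, granulocytes or mast cells, and erythroid cells or megakaryocytes had no gene in the tables, those for epithelial and lymphoid cells had 1 each, and the endothelial list had 2 of 10 (ESAM and KDR). None of the listed markers was among the 70 genes. ESAM and KDR summed to 66.9 to 92.7 scaled reads in WT and 158 to 212 in S80A libraries at 0 hr, and to 27.8 to 54.0 and 57.2 to 107 at 3 hr. The 5 listed macrophage markers of 36 (CD14, CD163, CD180, FCGR3A, MERTK) summed to 5204 to 7645 scaled reads in WT and 6097 to 10889 in S80A libraries at 0 hr. CD34, CEBPE and GFI1, the 3 listed genes of the 12 marking undifferentiated myeloid precursors, summed to 2269 to 2575 in WT and 466 to 799 in S80A libraries at 0 hr. The 5 listed genes of 15 for RNA quality and stress (HSPA1A, HSPA1B, JUN, MALAT1, NEAT1) summed to 2479 to 2776 and 4193 to 5783. The sums of the precursor, endothelial and RNA quality genes thus differed between the genotypes at 0 hr, though a sum can rest on 1 abundant gene. The median gap over the listed genes, S80A minus WT, was -0.81, 2.38 and 0.44 log2 at 0 hr for these 3 lists. At 3 hr it was 0.01, 0.48 and 0.65. The precursor genes still summed to 634 to 926 scaled reads in WT and 210 to 379 in S80A libraries at 3 hr, without overlap. The RNA quality genes summed to 6707 to 11512 in WT and 14414 to 15811 in S80A libraries at that time. The part of these genes in the gap of the 70 genes was not tested.

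Across the 70 genes the ratio of the S80A to the WT mean ranged from 4.03 to 285 at 0 hr, with a median of 7.13, and from 4.01 to 39.8 at 3 hr, with a median of 8.14. The ratio was above 10 for 24 genes at 0 hr and for 27 at 3 hr. At 0 hr every S80A library lay above every WT library for all 70 genes, where 31.6% of all listed genes had such a separation. At 3 hr this held for 68 genes, where the background was 35.7%, and the exceptions were CTGF and FAM65C. Both counts follow in large part from the rule and are printed only to show the spread. The middle of all listed genes was itself higher in S80A cells, by 0.21 log2 at 0 hr and 0.22 at 3 hr with the deposited scaling, and by 0.03 and 0.02 after TMM scaling, a shift of -0.18 and -0.20. TMM scaling was estimated from the listed genes alone, so their small median gap after it follows in large part from the method. After TMM scaling the lowest ratio among the 70 genes was 3.50 at 0 hr and 3.49 at 3 hr, and 53 of the 70 still passed the rule.

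**Figure D1:**
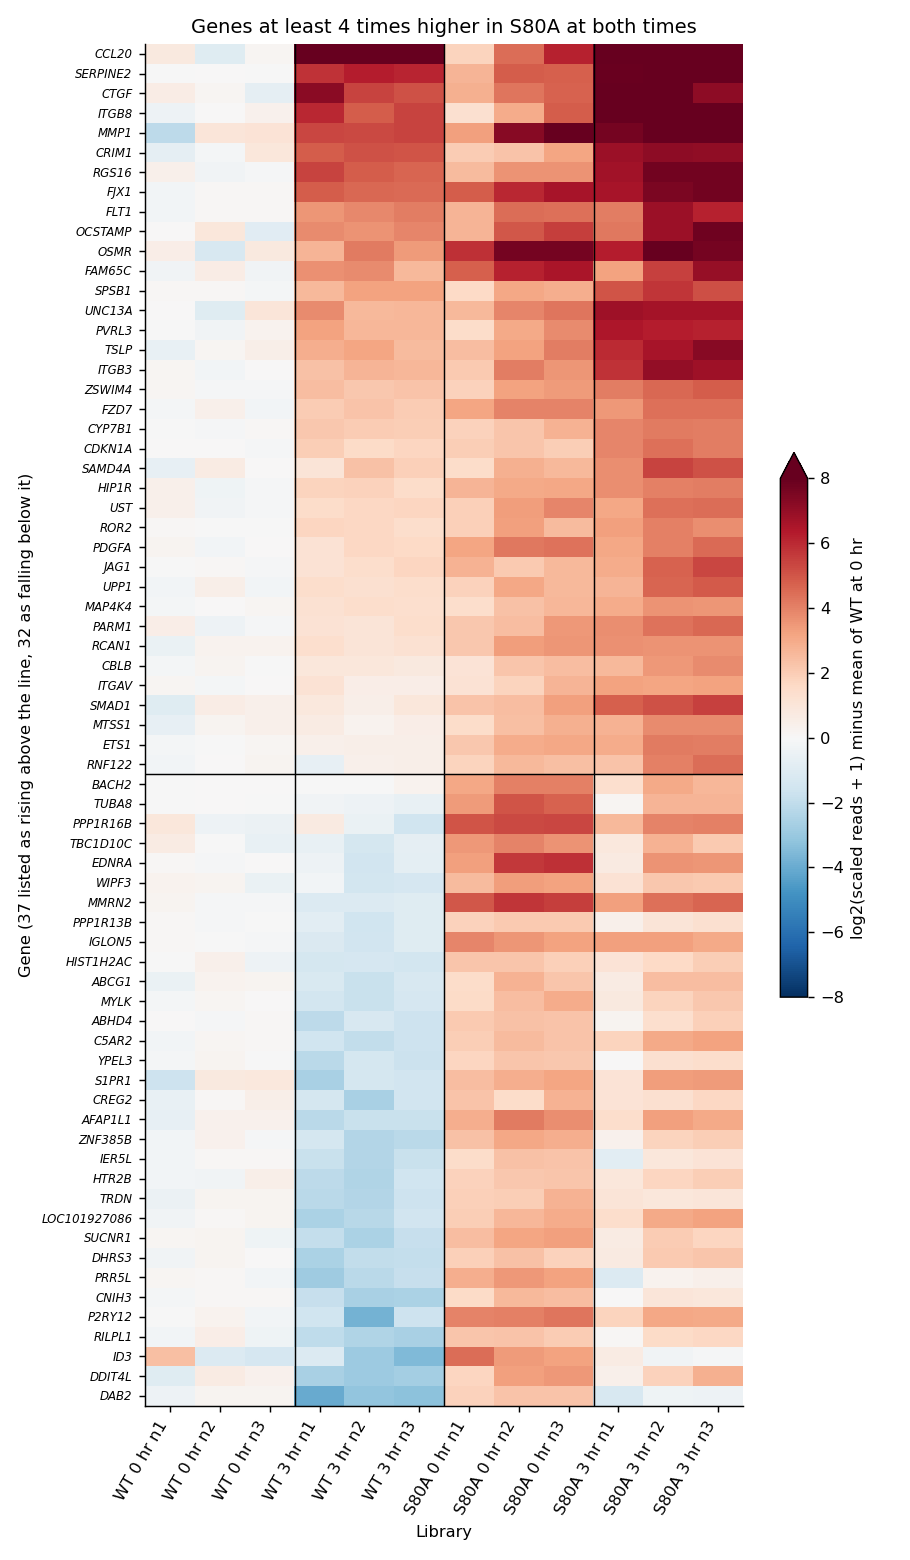
Each row is 1 of 69 of the 70 genes and each column 1 library, coloured by log2(scaled reads + 1) minus the mean of the WT libraries at 0 hr, with values beyond 8 drawn in the end colour. The 37 genes drawn that were listed as rising after LPS stand above the line and the 32 listed as falling below it, and in both blocks the S80A columns are redder than the WT columns of the same time, with replicate 1 the palest S80A column for most genes.

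The LPS response ran in both directions. By the authors' deposited tables, WT cells had 30 of the 70 genes listed as rising (43.9% of all listed genes) and 25 as falling (27.2%). In S80A cells 29 were listed as rising (46.2%) and 17 as falling (30.2%). Of the 70, 21 rose in both genotypes and 10 fell in both, 9 rose and 15 fell in the WT table alone, 8 rose and 7 fell in the S80A table alone, and none was listed in opposite directions. Listing in both tables thus held for 31 of the 70 genes (44.3%), a share near that of all listed genes (1562 of 3281). By role, all 6 secreted ligands, all 6 receptors and signal carriers of growth factors, cytokines, Wnt and BMP, and all 4 ubiquitin ligases and adaptors were listed as rising in at least 1 genotype. Of the 7 genes for G protein-coupled receptors and their regulators, 6 were listed as falling. Roles were assigned after the genes were known, so these splits are a description.

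NF-κB subunits, their feedback inhibitors and the main inflammatory cytokines were not among the 70 genes. None of the 24 listed genes for NF-κB subunits and feedback regulators, none of the 26 for inflammatory cytokines and none of the 37 interferon-stimulated genes met the rule, where 2.13% of all listed genes did. At so small a share, lists of these sizes would hold few or none, so the absence does not set them apart. The median gap of the 24 NF-κB genes, S80A minus WT, was 0.43 log2 at 0 hr and 0.30 at 3 hr, beside 0.21 and 0.22 for all listed genes. The interferon-stimulated genes had a median gap of -0.57 and -0.41 log2, and 2 of them met the rule in the other direction. The LPS response of the 24 NF-κB genes was larger in S80A cells for 1 and smaller for 3 by limma with Benjamini-Hochberg adjustment over all listed genes, beside 7.19% and 6.95% of all listed genes. The fixed lists with the most members were extracellular matrix and adhesion (ITGAV, ITGB3 and ITGB8 of 16 listed), proteases and inhibitors (MMP1 and SERPINE2 of 15) and growth factor, TGF-β and Wnt signalling (JAG1 and PDGFA of 30). Chemokines (CCL20 of 25), lineage transcription factors (ETS1 of 34), channels and transporters (ABCG1 of 21), G protein-coupled receptors (S1PR1 of 17) and cell cycle genes (CDKN1A of 9) each had 1. The median gaps of the matrix and protease lists were 0.81 and 0.70 log2 at 0 hr, and 1.54 and 1.75 at 3 hr. The growth factor list had a median gap of 1.35 at 0 hr and 0.80 at 3 hr.

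Promoter letters are shown because p50 binds κB sites and these genes share a gap between p50 genotypes. RefSeq windows on GRCh38.p14, from 250 bases before to 50 after an annotated start, were found for 53 of the 70 genes (91 windows). A loose κB motif, GGG and CC with any 5 bases between them, searched on both strands, was in 70.3% of these windows, in 70.9% of 3642 windows of listed genes and in 58.7% of all 35116 windows. A stricter κB consensus, in which GGG and CC enclose a purine, any base, an A or T and a pair of pyrimidines, was added after the loose motif had been seen to match most windows. It was in 13 of the 91 windows (14.3%, exact 95% binomial interval 7.83 to 23.2%), in 8.76% of the windows of listed genes and in 5.91% of all windows. On the gene's own strand alone the shares were 6.59%, 5.30% and 3.59%. By gene, the strict consensus was in windows of 13 of the 53 genes. The windows of 1 gene can overlap, while the binomial interval treats them as independent. Windows of the 70 genes and of all listed genes both had a median GC content of 64.7%, against 58.7% for all windows. The following 30-base stretches show the strict match, in capitals, before an annotated RefSeq start of genes described below, read along the gene's own strand.
CCL20, chr2:227813753-227813782, plus strand: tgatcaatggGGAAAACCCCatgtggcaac
TSLP, chr5:111071512-111071541, plus strand: aggaaggtgaGGGAAATTCCtgatgacttt
CTGF, chr6:131951448-131951477, minus strand: aggaatgcgaGGAATGTCCCtgtttgtgta
WIPF3, chr7:29806286-29806315, plus strand: gctcctatttGGGGAATTCCagccttaggc
FJX1, chr11:35618346-35618375, plus strand: aggagggggaGGGGGATCCCcctggctccc
C5AR2, chr19:47336919-47336948, plus strand: atgggggaggGGAGTGCCCCaacttcctct
The match began 79 bases before an annotated RefSeq start of CCL20, 191 before one of TSLP, 95 before one of CTGF, 212 before one of WIPF3, 104 before one of FJX1 and 166 before one of C5AR2. A gene can have more than 1 such start. The matches of CCL20, TSLP and C5AR2 lie inside the full annotated span of the gene and not before it. In CCL20, CTGF and C5AR2 the consensus reads on the other strand, so the capitals show its reverse complement. The AP-1 motif TGANTCA was in 8.79% of the members' windows, 6.73% of those of listed genes and 7.71% of all. The TATA box letters TATAAA were in 17.6%, 8.98% and 11.5%. A match is a description of letters and not of binding.

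For 4 of the 6 secreted ligands (FJX1, PDGFA, JAG1 and TSLP) the S80A mean before LPS was above the WT mean after it. FJX1 encodes a secreted homologue of the fly planar polarity protein four-jointed and lies on chromosome 11 (plus strand, 35618419 to 35620868) of GRCh38. It measured 11.3, 14.5 and 14.5 scaled reads in WT replicates 1, 2 and 3 at 0 hr and 412, 340.5 and 335 at 3 hr. In S80A cells it measured 402, 942 and 1376 at 0 hr and 1363, 2674 and 3067 at 3 hr. S80A replicates 2 and 3 at rest were thus above every LPS-treated WT library, while S80A replicate 1 fell within the range of those libraries. The S80A to WT ratio went from 67.6 at 0 hr to 6.53 at 3 hr. PDGFA, a growth factor ligand of the PDGF receptors, measured 612, 458 and 531 in WT cells at 0 hr and 1200.4, 1692 and 1617 at 3 hr. It was at 4804, 9991 and 10589.8 in S80A cells at 0 hr and 4449, 8591 and 12035 at 3 hr. PDGFA was listed as rising in WT cells, by 1.44 log2 in the authors' deposited table, and not in S80A cells, where each library held more than any WT library at either time. CTGF (present symbol CCN2), a matricellular protein, measured 3.46, 2.41 and 0.807 at 0 hr and 439, 129.8 and 103 at 3 hr in WT cells. The S80A values were 20.9, 57.4 and 79.8 at 0 hr and 2719, 990.4 and 422 at 3 hr. Replicate 1 was the highest library of its group after LPS in both genotypes, and the WT value of 439 exceeded the S80A replicate 3 value of 422.

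CCL20, TSLP and JAG1 were listed as rising in both genotypes. CCL20, the chemokine that attracts CCR6-bearing lymphocytes, measured 10.4, 2.41 and 6.45 in WT cells at 0 hr and 5685, 3168 and 2781 at 3 hr. Its S80A values were 21.9, 143 and 479 at 0 hr and 33148, 44591 and 50683 at 3 hr, ratios of 33.4 and 11.04. At rest S80A replicate 1 lay close to the WT libraries and replicate 3 far above them, whereas after LPS the 3 S80A libraries lay closer together. TSLP, an epithelial-type cytokine acting on dendritic cells, measured 6.06, 11.3 and 13.7 at 0 hr and 79.9, 94.5 and 61.02 at 3 hr in WT cells. In S80A cells TSLP was at 57.8, 98.5 and 188 at 0 hr and 664, 1065 and 1664 at 3 hr. JAG1, a ligand of Notch receptors, had a ratio of 5.79 at 0 hr and 9.08 at 3 hr, and its S80A replicate 1 was the highest S80A library at 0 hr (983, 609 and 864) and the lowest at 3 hr (1120.2, 3774 and 5723).

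**Figure D2:**
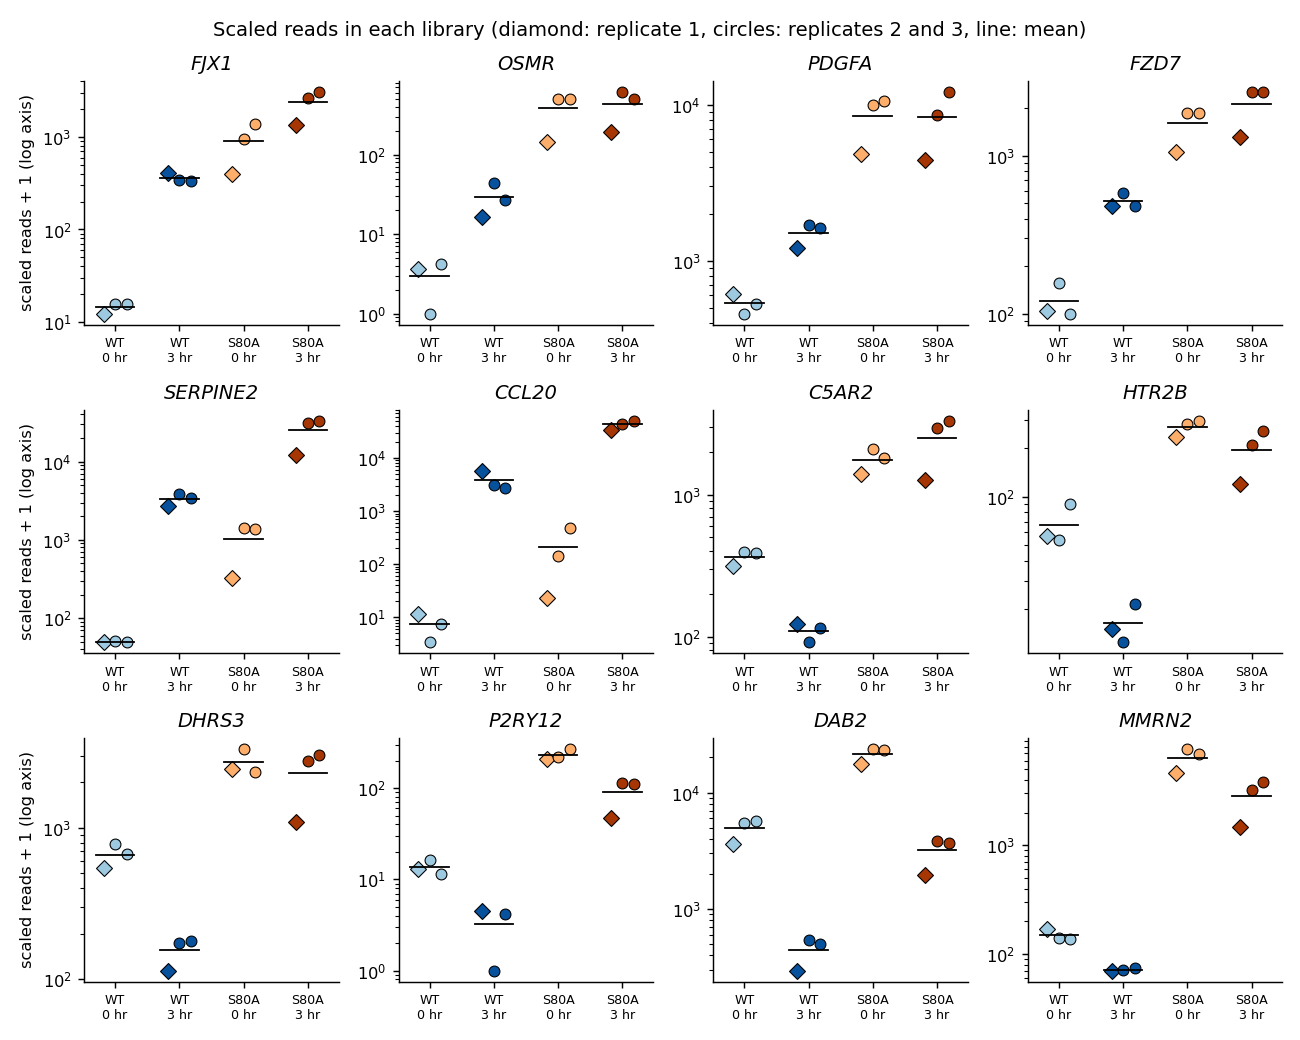
Scaled reads + 1 on a log axis in each of the 12 libraries for 12 of the genes, with diamonds for replicate 1, circles for replicates 2 and 3 and lines for group means. In the upper row (FJX1, OSMR, PDGFA, FZD7) the S80A mean at 0 hr is above the WT mean at 3 hr, and in C5AR2, HTR2B and DHRS3 the S80A mean at 3 hr is above the WT mean at 0 hr.

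All 6 receptor and signal carrier genes were listed as rising, and for OSMR, FZD7 and FLT1 the gap was far wider before LPS than after it. OSMR encodes the signalling receptor chain for oncostatin M and lies on chromosome 5 (plus strand, 38845858 to 38945596). It measured 2.60, 0 and 3.23 scaled reads in WT cells at 0 hr and 15.3, 43.6 and 25.7 at 3 hr, a rise listed by the authors. The S80A libraries held 141, 496 and 501 at 0 hr and 192, 609.6 and 502 at 3 hr, and the gene was not listed for S80A cells. All 3 resting S80A libraries were above all LPS-treated WT libraries. Its ratio went from 195 to 15.4, and its exons overlap those of RICTOR on the opposite strand, with the strand setting of the counting not given in the sources used here. FZD7, a Wnt receptor on chromosome 2 (plus strand, 202034587 to 202038445), measured 103, 157 and 99.2 at 0 hr and 482, 576 and 479.6 at 3 hr in WT cells. Its S80A values were 1058, 1871 and 1867 at 0 hr and 1307, 2521 and 2513 at 3 hr. The order of the groups was the same as for OSMR, with a ratio of 13.4 before LPS and 4.13 after it. FLT1, a receptor of VEGF, measured 1.73, 2.41 and 2.42 at 0 hr and 35.2, 44.6 and 52.5 at 3 hr in WT cells. In S80A cells FLT1 was at 19.9, 69.03 and 67.2 at 0 hr and 53.8, 357 and 224 at 3 hr. After LPS its S80A replicate 1 (53.8) stood just above the highest WT library (52.5). SMAD1, which carries BMP signals to the nucleus, was at 4.33, 14.5 and 12.9 at 0 hr and 17.6, 13.5 and 18.2 at 3 hr in WT cells. In S80A cells SMAD1 was at 49.8, 55.8 and 102 at 0 hr and 287, 362 and 458 at 3 hr, and it was listed as rising in the S80A table alone. ROR2, a receptor of WNT5A, and CRIM1, which binds BMPs, had ratios of 6.66 and 5.43 at 0 hr and of 4.43 and 4.14 at 3 hr, and both were listed as rising in both genotypes.

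Of the 7 genes for G protein-coupled receptors and their regulators, 5 were listed as falling in WT cells. C5AR2, the second receptor of complement C5a, lies on chromosome 19 (plus strand, 47332147 to 47347327) and measured 314, 396 and 384 scaled reads in WT cells at 0 hr and 121, 90.3 and 115 at 3 hr. In S80A cells it measured 1397, 2074 and 1796 at 0 hr and 1266, 2916 and 3314 at 3 hr. WT libraries fell in all 3 replicates, S80A replicate 1 was a little lower at 3 hr than at 0 hr, and S80A replicates 2 and 3 were higher. The ratio widened from 4.82 to 23.003. HTR2B, a serotonin receptor on chromosome 2 (minus strand, 231108230 to 231125118) whose exons overlap PSMD1 on the opposite strand, measured 56.3, 53.1 and 88.7 at 0 hr and 14.1, 11.4 and 20.3 at 3 hr in WT cells. It held 233, 285 and 297 at 0 hr and 119, 209 and 254 at 3 hr in S80A cells. The S80A libraries at 3 hr were all above the WT libraries at 0 hr. P2RY12, the ADP receptor known from platelets and microglia, was at 12.1, 15.3 and 10.5 at 0 hr and 3.52, 0 and 3.21 at 3 hr in WT cells. In S80A cells P2RY12 was at 206, 218 and 267 at 0 hr and 45.97, 113 and 109 at 3 hr. P2RY12 was listed as falling in both genotypes, with ratios of 18.2 and 39.8, and its S80A replicate 1 at rest was close to replicates 2 and 3.

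EDNRA, an endothelin receptor, held 8.66, 7.24 and 8.07 at 0 hr and 5.87, 2.08 and 4.28 at 3 hr scaled reads in WT cells. Its S80A values were 87.6, 449.9 and 521 at 0 hr and 13.5, 109 and 102 at 3 hr, so after LPS replicate 1 stood nearer to the WT libraries than to replicates 2 and 3. S1PR1, a receptor of sphingosine phosphate, measured 14.7, 83.6 and 85.5 at 0 hr and 7.05, 17.6 and 16.1 at 3 hr in WT cells. In S80A cells S1PR1 was at 274, 370.0 and 439 at 0 hr and 104, 498 and 514 at 3 hr. Replicate 1 was the lowest library of the group in both genotypes at both times for this gene. SUCNR1, the succinate receptor and a neighbour of P2RY12 on chromosome 3 at 488831 bases, had ratios of 7.98 and 12.9. RGS16, which shortens G protein signals, was the only gene of this group listed as rising. It measured 211, 130.3 and 146 at 0 hr and 6870.1, 4653 and 4019 at 3 hr in WT cells. In S80A cells RGS16 was at 926, 1916 and 1898 at 0 hr and 16889.7, 34001 and 33141 at 3 hr.

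Matrix, adhesion and protease genes were listed as rising for 8 of 10. SERPINE2, an inhibitor of serine proteases, measured 48.5, 50.7 and 48.4 scaled reads in WT cells at 0 hr and 2734, 3843 and 3413 at 3 hr. The S80A libraries held 328, 1419 and 1366 at 0 hr and 12042, 30707 and 33411 at 3 hr. The groups did not overlap at either time, and replicate 1 was the lowest S80A library at both times. MMP1, the interstitial collagenase, measured 0, 7.24 and 8.07 at 0 hr and 170.3, 162 and 177 at 3 hr in WT cells. In S80A cells MMP1 was at 40.8, 647 and 1354 at 0 hr and 839.8, 3393 and 4641 at 3 hr, with ratios of 133 and 17.4. Its 3 resting S80A libraries differed widely, and its exons overlap the opposite-strand gene WTAPP1. The integrin chains ITGAV and ITGB3 pair as the vitronectin receptor, and ITGB8 is another partner of ITGAV. ITGAV had ratios of 4.03 and 5.31, ITGB3 of 13.6 and 17.3, and ITGB8 of 14.1 and 6.93. ITGB8 measured 21.9, 73.7 and 274 in the S80A libraries at 0 hr and 2927, 2892 and 3202 at 3 hr, so its libraries were spread at rest and close together after LPS.

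MMRN2, an extracellular matrix protein of vessels, was listed as falling in both genotypes. It measured 169, 139.9 and 136 scaled reads in WT cells at 0 hr and 69.3, 69.6 and 73.9 at 3 hr, and 4599, 7664 and 6958 at 0 hr and 1463, 3187 and 3821 at 3 hr in S80A cells. Its ratio was 43.2 before LPS and 39.8 after it, and replicate 1 alone was 30.996 and 20.6 times the WT mean. IGLON5, a cell adhesion molecule, measured 45.9, 42.6 and 41.1 at 0 hr and 18.8, 14.5 and 21.4 at 3 hr in WT cells. In S80A cells IGLON5 was at 663, 519.7 and 407 at 0 hr and 437, 421 and 361 at 3 hr. Here replicate 1 was the highest S80A library at both times. The adhesion gene PVRL3 (present symbol NECTIN3), PARM1 and the sulfotransferase gene UST had ratios of 8.48, 6.86 and 9.44 at 0 hr and of 10.8, 8.38 and 5.57 at 3 hr.

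The transcription group comprised ETS1, BACH2, ID3, ZNF385B, HIST1H2AC and SAMD4A. ETS1, a lineage factor of lymphoid and endothelial cells, measured 1581, 1789 and 2028 scaled reads in WT cells at 0 hr and 2411, 2444 and 2505 at 3 hr. Its S80A values were 7835, 13969 and 15305 at 0 hr and 13919.5, 31599 and 30726 at 3 hr, with replicate 1 between the WT libraries and the other S80A libraries at both times. ID3, an inhibitor of basic helix-loop-helix factors, measured 516, 45.8 and 38.7 at 0 hr and 44.6, 12.5 and 7.49 at 3 hr in WT cells. In S80A cells ID3 was at 2212, 1067 and 928 at 0 hr and 155, 80.5 and 93.5 at 3 hr. Replicate 1 was the highest library for ID3 in all 4 groups. BACH2, a repressor of the bZIP family, had a ratio of 14.4 at 0 hr and 5.58 at 3 hr. It was listed as falling in S80A cells, from 161, 308 and 315 to 48.2, 156 and 117, and the WT libraries lay between 17.3 and 22.5. ZNF385B, the histone gene HIST1H2AC (present symbol H2AC6) and the RNA-binding protein gene SAMD4A had ratios of 7.05, 4.25 and 5.02 before LPS and of 11.4, 8.23 and 8.28 after it.

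The 7 cell cycle and stress genes had a median ratio of 4.23 at 0 hr and 5.40 at 3 hr. CDKN1A encodes the cyclin-dependent kinase inhibitor p21 and measured 3284, 3248 and 3049 scaled reads in WT cells at 0 hr and 12681, 9322 and 10737 at 3 hr. The S80A values were 12500.3, 14625 and 12287 at 0 hr and 48741, 67672 and 54913 at 3 hr. Replicate 1 lay with the other S80A libraries, and the gene was listed as rising in both genotypes, with the opposite-strand transcript DINOL over its exons. RCAN1, a regulator of calcineurin, measured 850.5, 1501 and 1523 at 0 hr and 3127, 2569 and 2859.6 at 3 hr in WT cells. In S80A cells RCAN1 was at 5506, 12466 and 14425 at 0 hr and 16077, 15014 and 15128 at 3 hr. Each resting S80A library was above each LPS-treated WT library. DDIT4L, an inhibitor of mTORC1 signalling, measured 398, 1276 and 988 at 0 hr and 133, 105 and 119.9 at 3 hr in WT cells. In S80A cells DDIT4L was at 2673, 7733 and 8774 at 0 hr and 1032, 2866 and 5655 at 3 hr, and it was listed as falling in the WT table alone. The mTORC2-binding PRR5L, IER5L, YPEL3 and the p53-binding PPP1R13B were listed as falling in WT cells, with ratios of 9.34, 4.23, 4.09 and 4.07 at 0 hr and of 4.86, 6.01, 6.91 and 4.28 at 3 hr.

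Of the 12 genes for kinases, cytoskeleton and endocytosis, 8 were listed as falling. DAB2, an endocytic adaptor, measured 3585, 5515 and 5732 scaled reads in WT cells at 0 hr and 294, 544 and 496 at 3 hr. It held 17481, 23627 and 23298 at 0 hr and 1971, 3866 and 3689 at 3 hr in S80A cells, so LPS lowered it in both genotypes while the order of the genotypes stayed the same. The S80A values at 3 hr overlapped the WT values at 0 hr. MAP4K4, a kinase of stress and cytoskeletal signalling, measured 1703, 1933 and 2140.1 at 0 hr and 4465, 5032 and 4966 at 3 hr in WT cells. In S80A cells MAP4K4 was at 5173, 9805 and 11947 at 0 hr and 14861, 22963 and 22425 at 3 hr. Its resting S80A libraries, replicate 1 included, were above all LPS-treated WT libraries. MTSS1, a scaffold between actin and the membrane, was listed as rising in S80A cells only, from 3950.0, 7527 and 10459.7 to 9730.4, 19585 and 19862, beside 906, 1679 and 1930.3 at 0 hr and 2290.4, 1777 and 2056 at 3 hr in WT cells. TUBA8, a tubulin chain, was listed as falling in S80A cells only, from 414, 1314 and 1021 to 43.7, 259 and 260.2, beside 38.1, 39.4 and 37.9 at 0 hr and 31.7, 29.1 and 24.6 at 3 hr in WT cells. Its replicate 1 went from 10.8 times the WT mean to 1.54 times.

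FAM65C (present symbol RIPOR3) had the highest ratio at 0 hr and is also the gene with the fewest WT reads. It had 1 read over the WT libraries at 0 hr and 249 over the S80A libraries, a ratio per size factor of 279 with an exact 95% counting interval of 49.6 to 11065, which covers counting error only. At 3 hr it measured 14.1, 15.6 and 6.42 scaled reads in WT and 10.1, 52.9 and 149.9 in S80A cells. Replicate 1 was thus inside the WT range after LPS, the only case among the 70 genes in which it was not above every WT library. The other genes of the group were the myosin kinase gene MYLK, AFAP1L1, WIPF3, HIP1R, PPP1R16B, TBC1D10C and RILPL1, with ratios between 4.48 (RILPL1) and 34.8 (PPP1R16B) at 0 hr and between 4.78 (HIP1R) and 26.6 (AFAP1L1) at 3 hr.

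The 8 metabolic and transport genes had a median ratio of 4.82 at 0 hr and 8.02 at 3 hr. DHRS3, which reduces retinal to retinol, lies on chromosome 1 (minus strand, 12567910 to 12617731) and measured 546, 779 and 674 scaled reads in WT cells at 0 hr and 113, 171 and 179 at 3 hr. It held 2456, 3324 and 2356 at 0 hr and 1094, 2769.8 and 3035 at 3 hr in S80A cells. The WT libraries fell in every replicate, and S80A replicate 1 was lower at 3 hr than at 0 hr while replicates 2 and 3 were near their level at rest. ABCG1, a cholesterol efflux transporter, measured 104, 183 and 178 at 0 hr and 63.4, 42.6 and 62.1 at 3 hr in WT cells. In S80A cells ABCG1 was at 409, 1021 and 714 at 0 hr and 232, 835 and 851 at 3 hr, and it was listed as falling in the WT table alone. CYP7B1, an oxysterol hydroxylase, had ratios of 5.10 and 4.01, close to the limit of the rule. The uridine phosphorylase gene UPP1 was listed as rising in S80A cells only, with ratios of 6.07 at 0 hr and 8.04 at 3 hr. ABHD4, CNIH3 and TRDN had ratios of 4.69 to 4.89 at 0 hr and of 7.82 to 8.01 at 3 hr. The ubiquitin ligases and adaptors CBLB, SPSB1, ZSWIM4 and RNF122 had ratios of 4.12 to 7.84 at 0 hr and of 4.69 to 12.9 at 3 hr.

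Genes without a shared role were OCSTAMP, CREG2, UNC13A and LOC101927086. OCSTAMP, needed for the fusion of osteoclast precursors, measured 0.866, 2.41 and 0 scaled reads in WT cells at 0 hr and 24.7, 21.8 and 26.8 at 3 hr. Its S80A values were 10.96, 58.2 and 83.96 at 0 hr and 33.6, 212 and 406 at 3 hr, and after LPS replicate 1 stood little above the WT libraries. LOC101927086, which had no place in GENCODE, measured 25.98, 34.6 and 37.1 at 0 hr and 4.70, 6.23 and 10.7 at 3 hr in WT cells. In S80A cells LOC101927086 was at 128, 209 and 255 at 0 hr and 86.3, 271 and 308 at 3 hr. CREG2 and UNC13A had ratios of 4.83 and 13.1 at 0 hr and of 9.93 and 12.2 at 3 hr. The pairs CREG2 and MAP4K4, DAB2 and OSMR, FJX1 and PRR5L, HIP1R and RILPL1, and P2RY12 and SUCNR1 lie within 1 Mb of each other.

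At the limit of the rule, ITGAV (lower ratio 4.03), CYP7B1 (4.01) and PPP1R13B (4.07) were just inside. ITGB5 (3.97 at 0 hr), KANK1 (3.95 at 0 hr) and PRSS23 (3.94 at 3 hr) were just outside. ICAM5, DLG3 and DLX3 had the ratios but an S80A mean of 49.1, 48.1 and 46.4 scaled reads at 1 of the times, under the floor of 50.

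Replicate 1 of the S80A cells showed the gap for nearly all of the genes, at a lower height. It was above every WT library at both times for 69 of the 70 genes, where 27.9% of all listed genes had it there. The S80A mean of the rule includes replicate 1, so the counts for the 70 genes follow in part from the rule. Its median ratio to the WT mean was 4.51 at 0 hr and 4.86 at 3 hr, beside 8.22 and 9.79 for the mean of replicates 2 and 3. It was at least 2 times the WT mean at both times for 66 genes, beside 312 of all 3281 listed genes, and at least 4 times for 25. Replicates 2 and 3 were within 2 times of each other for 65 genes at 0 hr and 68 at 3 hr. No share over all listed genes was taken for the counts of 65 and 68 or for the 25, so they are not read as particular to the 70 genes. The median of replicate 1 over the mean of replicates 2 and 3 was 0.524 at 0 hr and 0.444 at 3 hr for the 70 genes, beside 0.939 and 1.00 for all listed genes on scaled reads + 1. With S80A replicates 2 and 3 alone the rule kept 93 genes, 69 of them among the 70 (CTGF was not). With replicate 1 alone it kept 21 genes, 18 of them among the 70, the others being BMP6, EPB41L1 and XK. Replicates 2 and 3 chose the 93 genes without replicate 1, so its values did not enter the S80A means of that choice. The WT libraries are shared, and replicate 1 was among the libraries of the authors' S80A table, through which genes could be listed. Replicate 1 was above every WT library at both times for 87 of the 93, and at least 2 times the WT mean at both times for 75 of the 93, where 312 of all 3281 listed genes were.

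**Figure D3:**
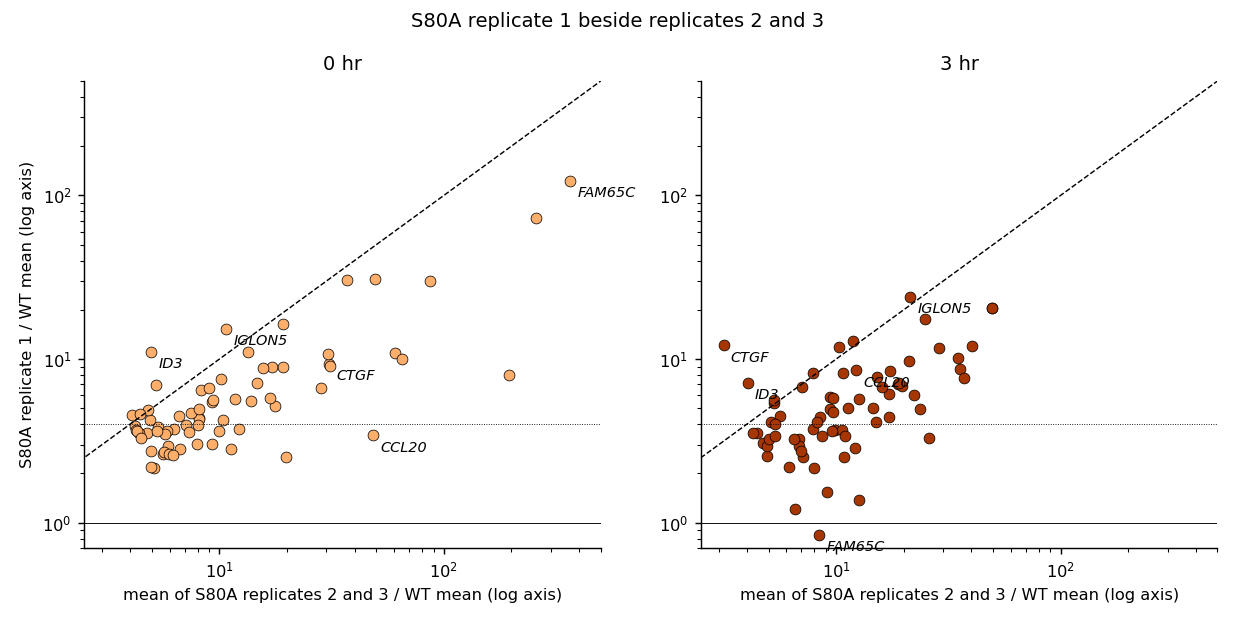
Ratio of S80A replicate 1 to the WT mean against the ratio of the mean of S80A replicates 2 and 3 to the WT mean, for the 70 genes at 0 hr (left) and 3 hr (right), both axes logarithmic, with a dashed line of equality, a solid line at 1 and a dotted line at 4. Most points lie below the dashed line, ID3 and IGLON5 lie above it at both times, and FAM65C lies under the solid line at 3 hr.

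The resting S80A level was compared with the LPS-treated WT level for genes that WT cells induced. Of the 30 genes listed as rising in WT cells, 23 had an S80A mean at 0 hr above the WT mean at 3 hr, where 5.07% of all genes listed as rising in WT cells did, and for 11 of the 30 every S80A library at 0 hr was above every WT library at 3 hr, against 1.53% of all genes listed as rising in WT cells. Of the 25 genes listed as falling in WT cells, 24 had an S80A mean at 3 hr above the WT mean at 0 hr, against 16.8% of all genes listed as falling in WT cells, and for 18 every S80A library at 3 hr was above every WT library at 0 hr, against 5.82%. A gap of 4 or more at both times puts genes with a modest LPS response in these positions by construction, so the counts describe the genes and were not tested. For the 30 rising genes the median ratio went from 10.4 at 0 hr to 6.02 at 3 hr, and for the 25 falling genes from 4.83 to 11.5. The gap was larger at 3 hr than at 0 hr for 7 of the 30 genes that rose and 23 of the 25 that fell. The WT values that made a gene rising or falling also form these ratios, so this split follows in part from the classes. Over all listed genes the median difference of the LPS response, S80A minus WT, was -0.26 log2 for those rising in WT cells. For those falling in WT cells it was 0.32. The change was also taken within each numbered pair of libraries. For the 25 falling genes the median change on the log2(scaled reads + 1) scale was -1.58, -2.18 and -1.74 in WT pairs 1, 2 and 3, and -1.43, -0.91 and -0.70 in S80A pairs 1, 2 and 3. For the 30 rising genes it was 2.40, 2.95 and 2.37 in WT pairs and 1.99, 2.28 and 1.97 in S80A pairs. All 1441 genes listed as rising in WT cells had medians of 2.21, 2.29 and 2.22 in WT pairs and 2.38, 2.00 and 1.70 in S80A pairs. Over all rising genes S80A pairs 2 and 3 were thus lower too, whereas S80A pair 1 was higher than WT pair 1. Among falling genes, S80A pair 1 was thus near the WT pairs and pairs 2 and 3 were above them. All 894 genes listed as falling in WT cells had medians of -1.47, -1.23 and -1.07 in S80A pairs 1, 2 and 3 and of -1.58 to -1.47 in WT pairs.

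**Figure D4:**
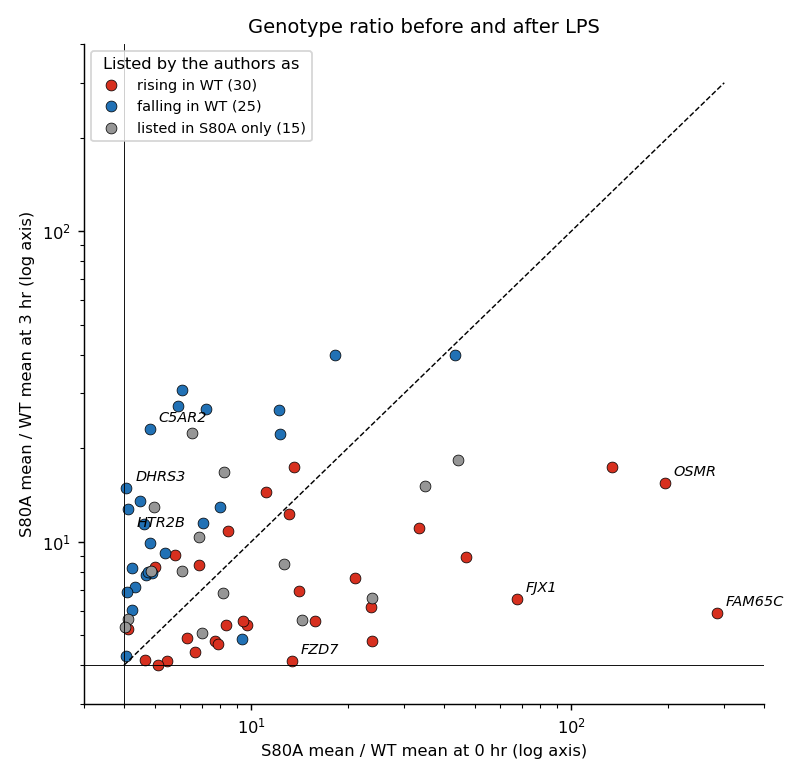
Ratio of the S80A to the WT mean at 0 hr against that at 3 hr, both axes logarithmic, for the 70 genes, with solid lines at the limit of 4 and a dashed line of equal ratios. Genes listed as falling in WT cells (blue) lie mostly above the dashed line, most genes listed as rising (red) lie below it, and the 7 labelled genes passed the test of the difference of the LPS response.

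Whether the gap itself changed after LPS was tested with the limma interaction term (S80A response minus WT response) on log2(scaled reads + 1), fitted over all 3281 listed genes with Benjamini-Hochberg adjustment at 0.05. This contrast did not choose the genes, although a rule that requires the gap at both times leaves out genes whose gap closes. The LPS response was larger (more positive) in S80A cells for 3 of the 70 genes, against 7.19% of all listed genes, and smaller (more negative) for 4, against 6.95%. In this fit the share among the 70 was thus no higher than the background, while in some alternative fits given below it was higher. The 3 were C5AR2, with a difference of 2.15 ± 0.47 log2 (SE) and a limma adjusted p of 0.0136, DHRS3, with 1.76 ± 0.52 and 0.0449, and HTR2B, with 1.496 ± 0.45 and 0.0486. The 4 were FJX1, with a difference of -3.19 ± 0.59 log2 (SE) and a limma adjusted p of 0.00713, FZD7, with -1.73 ± 0.45 and 0.03, FAM65C, with -3.96 ± 1.12 and 0.0396, and OSMR, with -3.19 ± 0.97 and 0.0492. The next in each direction were LOC101927086 (2.11 ± 0.65 log2, limma adjusted p 0.0542) and SMAD1 (1.72 ± 0.57, 0.0664) for a larger response and PDGFA (-1.53 ± 0.54, 0.082) for a smaller one. The median SE over the 70 genes was 0.58 log2, and 16 genes (22.9%) had an unadjusted p under 0.05, against 32.3% of all listed genes.

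Replicate numbers were taken to pair the 0 and 3 hr libraries within each genotype, an assumption that the correlations between libraries do not settle. With that replicate block within genotype the number of genes called by limma went from 7 to 17, 5 larger and 12 smaller, against 20.0% of all listed genes called. All 7 were among them, and the others were BACH2, EDNRA, FLT1, LOC101927086, OCSTAMP, PDGFA, RGS16, SERPINE2, SMAD1 and TUBA8. In this fit the limma adjusted p was 0.0189 for PDGFA, 0.0105 for LOC101927086 and 0.0484 for SMAD1. Without S80A replicate 1 at both times, 19 of the 70 genes were called by limma (9 larger, 10 smaller), and 25 with the block as well, each including the 7. Of all listed genes, 24.5% and 27.2% were called in these fits, so the share called rose over the whole table. The count also moved with single libraries. It was 10 without S80A replicate 1 at 0 hr and 13 without it at 3 hr, where 16.5% and 20.2% of all listed genes were called. Leaving out WT replicate 1, 2 or 3 gave 3, 3 and 2 calls at 0 hr and 4, 2 and 3 calls at 3 hr. Leaving out S80A replicate 2 or 3 gave 2 and 3 calls at 0 hr and 3 and 5 calls at 3 hr. These fits of 2 to 5 calls called 7.89 to 14% of all listed genes. C5AR2 and FJX1 were called in each of these 12 fits, with limma adjusted p-values of at most 0.039 and 0.0215 over all alternatives tried. HTR2B and OSMR each lost the call in 13 of 23 alternatives, DHRS3 and FAM65C in 11 and FZD7 in 6.

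**Figure D5:**
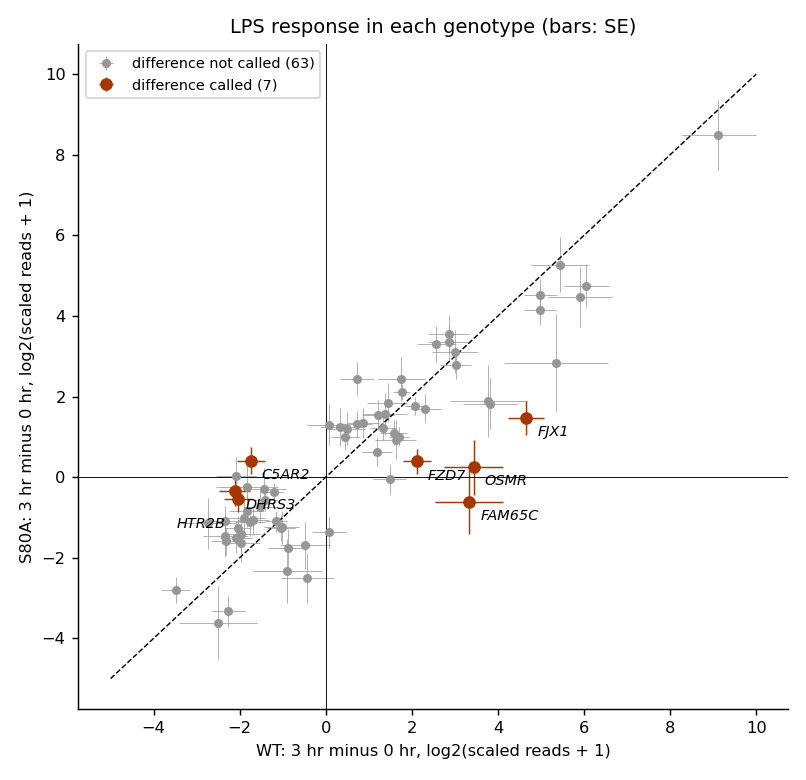
LPS response (3 hr minus 0 hr) on the log2(scaled reads + 1) scale in WT cells against that in S80A cells for the 70 genes, with bars for the limma SE and a dashed line of equal responses. The 7 named genes are those called for the difference, and C5AR2, DHRS3 and HTR2B lie above the line while FJX1, FZD7, OSMR and FAM65C lie below it.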

How the data were processed

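RNA-seq of 12 libraries, in 4 groups of 3, was used. Per the labels' protocols, the libraries were stranded, poly(A)-selected and read from a single end. HISAT, HTSeq, DESeq2, StringTie, Cuffdiff and FastQC, with the build GRCh38, are named in the submitters' processing notes. The gene annotation and strand setting used for counting were not given in the sources used here. For each genotype the authors deposited 1 table with a log2 fold change of 3 hr over 0 hr, a p-value, an adjusted p-value and a signal for each library. The deposited signal values are read counts, each divided by its library's size factor, since 100% of values were whole multiples of a library's smallest value to within 0.01 reads. Every gene in the tables (2335 for WT, 2508 for S80A) has an adjusted p-value below 0.01 and changes by more than 1 log2, so depth refers to these genes only and other genes were not analysed here.

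The 70 genes, the gene lists and the tests were chosen with earlier results of these data known. The tables were joined on the gene identifier and the rule was applied to the deposited values. Genes are named with values when they were among the 12 with the highest S80A mean, the 5 with the smallest interaction p in each direction, the 5 highest or lowest by replicate 1, the 5 largest or 3 smallest ratios, or in a list; further genes are named by role after their values were seen. The values of 1 of the 70 genes are left out of the text but counted throughout. The interaction was fitted with limma 3.58.1 (R 4.3.3) on log2(scaled reads + 1). edgeR 4.0.16 and DESeq2 1.42.0 were run on the whole reads as alternatives. Python 3.11.15 with pandas 2.3.3, scipy 1.17.1 and matplotlib 3.10.9 did the rest. The fit was tested on simulated counts of genes without a low mean in any group, all with the same assumed spread. Genes with a low group mean were left out because adding 1 can itself make an interaction there. The simulation therefore does not cover the calls of FAM65C, OSMR, FJX1 and HTR2B. Their lowest group means were 0.27, 1.94, 13.4 and 15.3 scaled reads.

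Same-numbered libraries deviated together from their group means within a genotype (correlations across genes of 0.34, 0.21 and 0.15 for WT and 0.30, 0.29 and 0.20 for S80A), but not in every pair across genotypes (0.19, 0.24 and 0.26 at 0 hr, 0.15, 0.20 and 0.06 at 3 hr, and 0.003 for WT 3 hr with S80A 0 hr, number 1). Differently numbered libraries of a genotype had correlations of -0.29 to 0.156. The highest, WT 0 hr number 2 with WT 3 hr number 3, was above the 0.153 of the matched WT number 3. The numbers come from the labels. They were taken to pair the 0 and 3 hr libraries within a genotype, which these correlations do not settle. GENCODE 29 (GRCh38) gave positions, with a single place for 69 of the 70 genes. Exons of 28 of these overlap another gene, 25 on the opposite strand, and reads of such pairs may be shared. Adding 1 before taking log2 shrinks the changes of genes with few reads, and can by itself make a difference of the LPS response in such genes.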

Additional observations from a re-analysis of the deposited data

Results flagged for a closer look

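The LPS response of 7 of the 70 genes differed between S80A and wild-type cells by the limma interaction term, where 14.1% of all listed genes did, and each is given here as S80A minus WT on the log2 scale. The difference was 2.15 for C5AR2, with C5AR2 transcript lower after LPS in 3 of 3 WT pairs and 1 of 3 S80A pairs. It was 1.76 for DHRS3 and 1.496 for HTR2B. It was -3.19 for FJX1, which rose in every pair of both genotypes. It was -1.73 for FZD7, -3.96 for FAM65C and -3.19 for OSMR. The values of every library are given in the results above.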

How the results depend on the processing

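Under the alternatives, the number of the 70 genes called for a different LPS response, 7 in the limma fit reported (14.1% of all listed genes), became 1 among the 31 genes in both tables (fewer genes tested, 4.48% of them called), 12 with the replicate block across genotypes (18.9%), 17 with the replicate block within genotype (20.0%), 38 with sample quality weights, whose estimation stopped before convergence (48.6%), 19 without S80A replicate 1 at both times (24.5%) and 25 without it and with the block (27.2%). Percentages are of all listed genes called in the same fit. The share called among the 70 genes was above that percentage with the block within genotype and with sample quality weights. It was also above it in both fits without S80A replicate 1 at both times, and below it in the other fits. Leaving out 1 library gave 2 to 13 (7.89 to 20.2%). The cause of these shifts was not tested. Other pseudocounts, a filter, TMM scaling, edgeR and DESeq2 gave 5 to 10. The interactions of the 10 genes followed through the alternatives kept their direction in all of them. The rule kept 70 genes as stated, 134 at a ratio of 3, 16 at a ratio of 8 and 45 at an S80A floor of 200. Leaving out 1 library gave 58 to 81, and medians, a floor of 20, TMM scaling and leaving out S80A replicate 1 gave 80, 81, 54 and 93. The counts of 23 of 30 rising and 24 of 25 falling genes were 24 and 21 after TMM scaling and the same without S80A replicate 1; these checks were chosen after the data were seen. With 3 libraries a group and a median SE of 0.58 log2, the smallest difference called among the 70 genes was 1.496 log2 in the fit reported, while the block within genotype also called smaller ones, such as RGS16 at -0.83.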

Other observations

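Levels of 3 genes by replicate number are given here as examples chosen after their values were seen. ID3, an inhibitor of basic helix-loop-helix factors, was highest in replicate 1 of all 4 groups, at 516 scaled reads against 45.8 and 38.7 in WT replicates 2 and 3 at 0 hr and at 2212 against 1067 and 928 in S80A cells. CTGF after LPS was highest in replicate 1 of both genotypes, at 439 against 129.8 and 103 in WT and at 2719 against 990.4 and 422 in S80A cells, but at 0 hr replicate 1 was the highest library in WT cells, at 3.46, and the lowest in S80A cells, at 20.9. S1PR1 was lowest in replicate 1 of all 4 groups.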
